A study of Gossypium barbadense and Gossypium hirsutum with 4 samples.

Results

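Chromosomes A10 and D10 are the tenth homoeologous pair of the allotetraploid cottons, 1 from the A and 1 from the D subgenome. All islands listed on A10 or D10 in the lists of both species were taken, 12992 of the 156610 islands of the series. Gossypium barbadense (list name Hai7124) had 3415 islands on A10 and 2175 on D10, 5590 of its 67639. Gossypium hirsutum (list name TM_1) had 5427 on A10 and 1975 on D10, 7402 of its 88971. Membership rested on the chromosome name alone, so all read counts, ratios and positions were free to vary.

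An island is a stretch where reads from immunoprecipitated chromatin exceeded reads from untreated input chromatin, as called by the authors. Leaves of plants 4 weeks after planting were used, nuclei were digested with micrococcal nuclease, and an antibody against CENH3 recovered the nucleosomes. A single ChIP library per species was paired with a single antibody-free input, so no value below has a replicate, no difference was given a p-value, and a difference between species is a difference between libraries. Intervals are at 95% and reflect counting of reads or islands alone.

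CENH3 is the histone H3 variant that takes the place of canonical H3 in centromeric nucleosomes. The kinetochore, which binds the spindle fibres in cell division, assembles on CENH3 chromatin, and the position of that chromatin can differ between related chromosomes without any change in the surrounding genes. Plant centromeres are usually rich in retrotransposons and other repeats, where short reads are hard to place. Homoeologues are the matching chromosomes that an allopolyploid received from its different parents, and in cotton the A chromosomes are generally longer than their D partners.

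Enrichment is given as a scaled ratio, which is ChIP reads over input reads, with the input counted as at least 3 reads, times 1.64 in G. barbadense and 1.2 in G. hirsutum, the constant that links the reads to the authors' fold in each list. In G. barbadense the pair held 193874 ChIP and 112597 input reads in islands of A10 and 136713 and 57240 in islands of D10. In G. hirsutum it held 372170 and 212331 on A10 and 134283 and 80730 on D10. The last island ended at 111.7 Mb on A10 and 66.8 Mb on D10 in G. barbadense, and at 115.1 Mb and 66.9 Mb in G. hirsutum. The lists use different coordinates, so positions are in Mb of each list and, between species, in percent of the end of the last island.

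In G. barbadense D10 had the higher share of high-ratio islands, and in G. hirsutum the shares of A10 and D10 were alike. The median island ratio in G. barbadense was 2.23 on A10 (interquartile range 1.78 to 3.48), the lowest of all 26 chromosomes, and 3.07 on D10 (2.02 to 6.56). Islands of ratio 4 or more were 720 of 3415 on A10 (21.1%) and 840 of 2175 on D10 (38.6%), against 28.6% of the whole list. Both shares lay inside the ranges of their subgenomes, 19.5% to 25.5% over the 13 A chromosomes and 37.0% to 45.6% over the 13 D chromosomes. The G. hirsutum medians were 2.18 (1.80 to 2.80) on A10 and 2.11 (1.75 to 2.69) on D10. There, 509 islands on A10 (9.38%) and 185 on D10 (9.37%) had a ratio of 4 or more, near the 9.75% of the whole list. At a ratio of 8 or more the counts in G. barbadense were 395 on A10 (11.6%) and 471 on D10 (21.7%, the lowest share of the 13 D chromosomes), against 16.5% of that list. They were 138 (2.54%) and 48 (2.43%) in G. hirsutum, against 2.65%.

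Each chromosome was given 1 site, here called the domain, the run of 100 kb bins around the highest smoothed value. Islands of high ratio were packed together there on A10 of both species and on D10 of G. barbadense. On D10 of G. hirsutum they were sparse, and all islands covered 6.90% of the domain against 6.23% of the chromosome. In G. barbadense the A10 domain ran from 46.1 to 47.4 Mb, 1.3 Mb wide, with 289 islands that covered 41.7% of it. Its 58776 ChIP against 3603 input reads gave a ratio of 26.8 (25.9 to 27.7), the highest of the 13 A chromosomes, whose other ratios went down to 16.5. The D10 domain ran from 38.0 to 39.8 Mb, 1.8 Mb wide, with 401 islands that covered 44.7% of it. Its 63472 ChIP against 4978 input reads gave a ratio of 20.9 (20.3 to 21.5), the 12th of the 13 D chromosomes, which reached 33.9. So the wider domain of the pair had the lower ratio, and the intervals did not overlap. Located from islands of ratio 4 or more alone, A10 kept its ratio but was 4th of the 13 A chromosomes, and D10 had 23.7 (23.0 to 24.5). With covered length in the bins the order turned, at 12.4 on A10 and 14.4 on D10. With 804 kb of island sequence D10 had the most covered length of all 26 domains in this species, and A10 with 542 kb was 24th. These domains held 30.3% of the ChIP reads in islands of A10 and 46.4% of those of D10.

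The outer stretches of both G. barbadense domains had lower ratios than the middle ones. This is no separate result, since a domain ends where the smoothed value falls. Split into 4 equal stretches, the D10 domain had ratios of 9.17 (8.71 to 9.65), 34.9 (32.8 to 37.3), 42.1 (39.4 to 44.9) and 10.97 (10.3 to 11.6). The A10 domain had 13.2 (12.4 to 14.1), 33.7 (31.5 to 36.1), 42.7 (39.8 to 45.8) and 19.9 (18.6 to 21.3). The intervals of A10 and D10 overlapped in both middle stretches, and both outer stretches of D10 were lower than those of A10. Within 0.5 Mb of the midpoint on either side the order of the domains turned, at 37.4 (35.9 to 39.1) on D10 and 29.8 (28.8 to 30.9) on A10. The central 90% of islands of ratio 8 or more within 3 Mb spanned 1.07 Mb on A10 and 1.24 Mb on D10, the latter the 7th of 13 D chromosomes. The D10 domain of 1.8 Mb was the 2nd widest of all 26. When located from islands of ratio 4 or more alone, the domains were 1.3 and 1.6 Mb wide.

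Single islands in these domains carried few input reads. The 3 islands of highest ratio on A10 lay at 47034401 to 47039400 (334 ChIP and 4 input reads, ratio 136.9), at 46558001 to 46560600 (232 and 2 reads, ratio 126.8) and at 46877801 to 46879600 (187 and 2 reads, ratio 102.2). On D10 the first of them lay at 38853601 to 38858800, 44 kb from the domain midpoint, with 396 ChIP and 2 input reads and a ratio of 216.5 (73.5 to 1054). The next were at 38896601 to 38898800 (293 and 4 reads, ratio 120.1) and at 39039001 to 39042000 (412 and 6 reads, ratio 112.6). Such intervals are wide even with the input counted as at least 3 reads, so these islands could not be ranked. Fewer than 3 input reads were counted in 119 of 289 domain islands on A10 (41.2%) and in 150 of 401 on D10 (37.4%). Of the islands with 0 input reads, 71 of 90 on A10 and 77 of 91 on D10 lay in the domain.

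**Figure D1:**
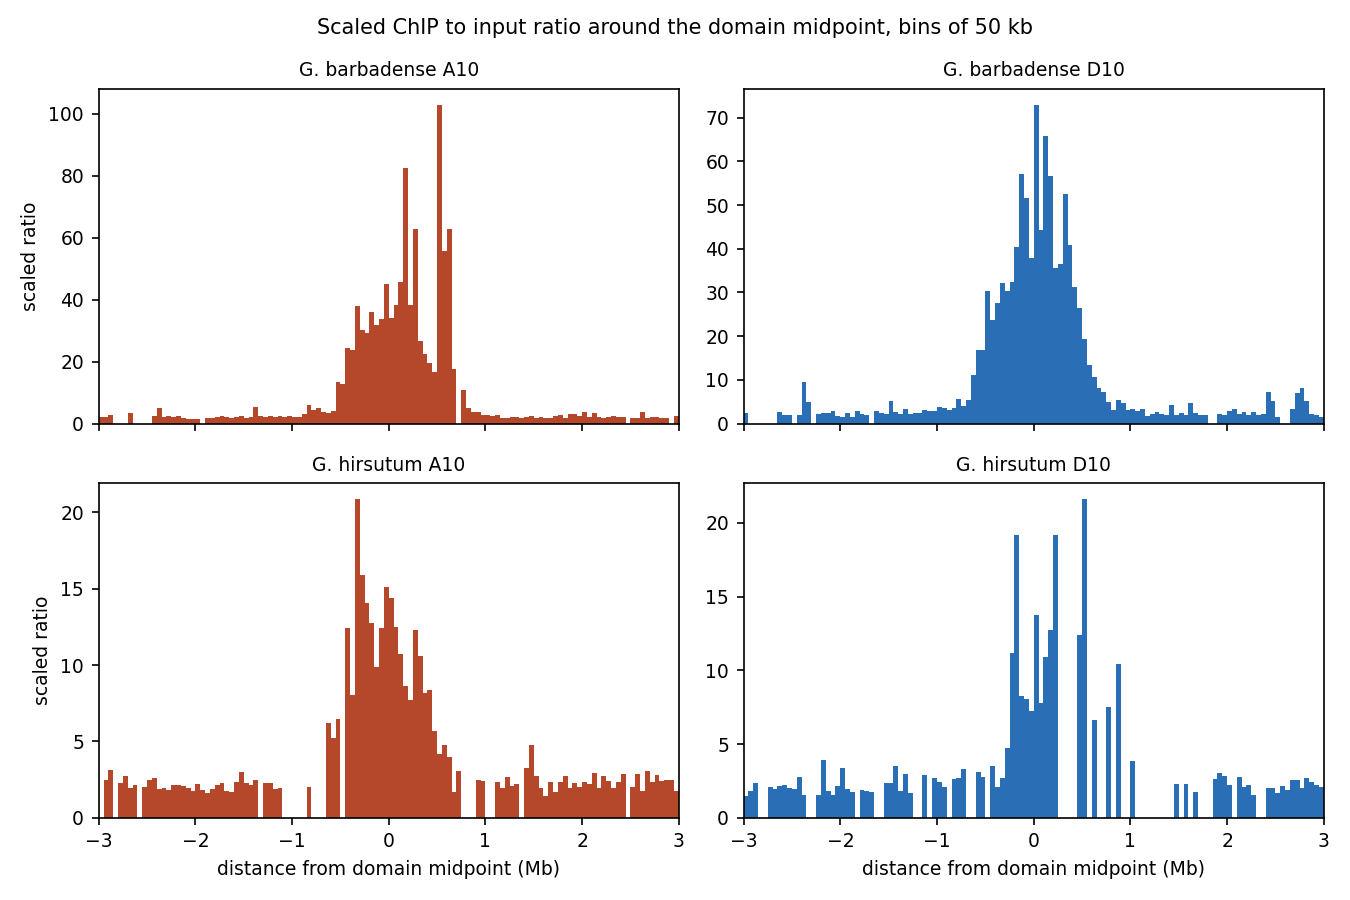
Scaled ChIP to input ratio of all islands with their midpoint in each 50 kb bin (vertical axis, no unit) against distance from the domain midpoint in Mb, with a separate vertical scale for each panel. The highest bar lies within 0.525 Mb of the midpoint in each panel. On D10 of G. hirsutum this bar lies outside the domain and holds 2 islands with 54 ChIP and 0 input reads. Separate bars with empty bins between them stand to the right of that domain.

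The A10 domain of G. barbadense was not filled evenly. Its longest stretch without an island, 56 kb at 47306001 to 47362000, was the second longest inside any of the 26 domains, and lay in the last of the 4 stretches. On D10 the longest was 23.2 kb, at 39560801 to 39584000. The 50 kb bin of highest ratio on A10 was centred 0.525 Mb from the midpoint, at the same end as the empty stretch. It held 5 islands with 188 ChIP and 2 input reads (ratio 102.8, interval 34.6 to 503). On D10 it was centred 0.025 Mb from the midpoint and held 14 islands with 1556 ChIP and 35 input reads (ratio 72.9, interval 52.2 to 105). The longest island of D10 lay inside its domain, at 39521401 to 39535400, with 14000 bp, 630 ChIP and 119 input reads and a ratio of 8.68 (7.13 to 10.7).

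In G. hirsutum the same chromosomes carried sparser domains. The A10 domain ran from 47.4 to 48.5 Mb, 1.1 Mb wide, with 105 islands on 14.3% of it. Its 9384 ChIP against 1011 input reads gave a ratio of 11.1 (10.4 to 11.9), the highest of all 26 in this list and the 2nd of 26 when domains were located from islands of ratio 4 or more. The D10 domain ran from 38.5 to 39.1 Mb, 0.6 Mb wide, and held 29 islands on 6.90% of it, the lowest of the 26 in islands and in share covered but not in width. With domains from islands of ratio 4 or more, D11 had fewer, 27 islands on 28.2 kb against 29 on 41.4 kb of D10. The 1725 ChIP against 218 input reads of the D10 domain gave a ratio of 9.50 (8.24 to 10.98), whose interval overlapped that of A10. The A10 domain stood 3.24 times above the highest bin elsewhere on its chromosome. The D10 domain stood only 1.63 times above a second site at 47.35 Mb, under the factor of 2 used to call a domain distinct. From islands of ratio 4 or more alone both were distinct, at 20.9 and 8.69 times, from 47.3 to 48.5 Mb and from 38.5 to 39.2 Mb.

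The few D10 islands of G. hirsutum were spread out. The longest empty stretch in the domain was 76 kb, at 38652001 to 38728000, and on A10 it was 71.8 kb, at 47428001 to 47499800. Past the right edge of the D10 domain, the next 1 Mb held 7 islands, of which 6 had a ratio of 4 or more, with a pooled ratio of 9.60 (6.32 to 15.2). The 1 Mb past the left edge held 20 islands with 2 of that kind, at 2.70 (2.42 to 3.01). Over both sides to 3 Mb, 31 islands of ratio 8 or more had a central 90% that spanned 3.02 Mb, against 0.434 to 1.405 Mb on the other D chromosomes. Of these 31 islands 22 lay in the domain, 4 to its left and 5 to its right, so a few outlying islands set this span, and the other chromosomes had as few as 2 such islands. On A10 92 such islands spanned 0.773 Mb.

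The islands of highest ratio on A10 of G. hirsutum were at 47539801 to 47540800 (70 ChIP and 2 input reads, ratio 28.0), 47618801 to 47620600 (67 and 2 reads, ratio 26.8) and 47707401 to 47708400 (65 and 2 reads, ratio 26.0). On D10 they were at 38829201 to 38832600 (102 and 4 reads, ratio 30.6), 38921201 to 38922000 (52 and 0 reads, ratio 20.8) and 38618001 to 38619000 (48 and 2 reads, ratio 19.2). All 6 had lower interval limits at or above 6.19. Islands outside the domains had a median of 2.16 on A10 and 2.10 on D10. The 6 islands were picked for their high ratio, so their place above these medians was fixed by that choice. The authors' deposited table gives a fold of 250.4 to the 2nd of these on D10, since 0 reads were replaced there by 0.25.

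The domains of the pair lay on opposite sides of the middle. In G. barbadense the midpoint was at 41.9% of A10 and 58.2% of D10, 16.4 points apart. Read from the other end, A10 had its midpoint at 58.1%, within 0.0596 points of D10, which is under the size of 1 bin (0.0895% of A10 and 0.15% of D10). In G. hirsutum the midpoints were at 41.7% and 58.0%, 16.4 points apart directly and 0.292 points apart with A10 read from the other end. The ratio of the longer to the shorter arm was therefore alike on all 4 chromosomes, at 1.39 on A10 and 1.39 on D10 in G. barbadense and at 1.4 and 1.38 in G. hirsutum. Among the other 12 pairs the difference with A read from the other end was between 1.78 and 37.7 points in G. barbadense and between 2.79 and 60.1 points in G. hirsutum, with 1 pair under 5 points in each. With domains from islands of ratio 4 or more the G. hirsutum range was 2.64 to 37.6 points. Read from the same end, with domains from all islands, the other 12 pairs differed by 1.12 to 18.6 points in G. barbadense, with 4 pairs under 5 points. In G. hirsutum they differed by 2.43 to 64.4 points, with 2 such pairs. The 64.4 points were those of pair 2, whose D02 domain lay at 0 to 0.4 Mb. The direction in which the assemblies list A10 and D10 was not tested.

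**Figure D2:**
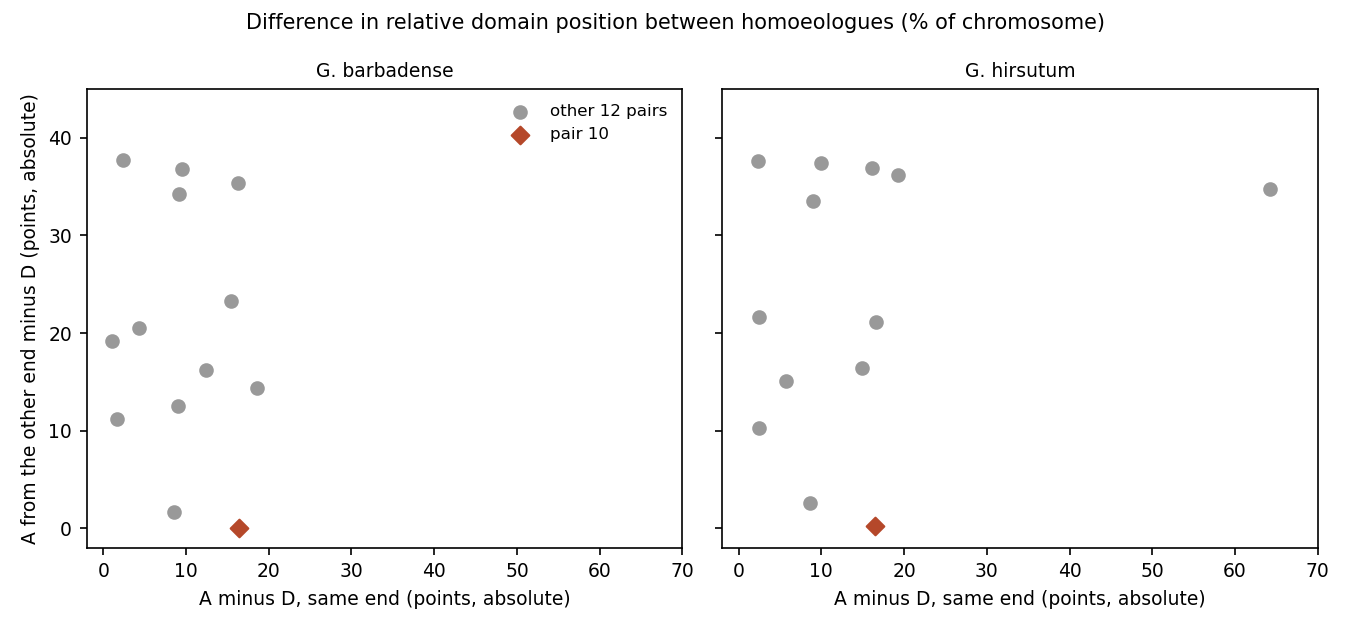
Absolute difference in relative domain position between the A and D chromosome of each pair, in points of chromosome length, with both read from the same end (horizontal) and with A read from the other end (vertical), for domains located from islands of ratio 4 or more. Pair 10 has the lowest vertical value in both panels, 0.0596 points in G. barbadense and 0.261 points in G. hirsutum, at a horizontal value of 16.4 and 16.5 points.

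Between species the relative positions were close. The A10 midpoints differed by 0.179 points and the D10 midpoints by 0.173 points, and these were the 21st and 22nd of 26 chromosomes from the largest difference. The width went opposite ways within the pair. A10 was 0.722 times as wide as D10 in G. barbadense, the lowest of the 13 pairs (11th with domains from islands of ratio 4 or more, at 0.8125). In G. hirsutum A10 was 1.83 times as wide as D10, the third of the 13 pairs from the highest. Above it were pairs 2 and 8, at 3.75 and 2.17. The D02 and D08 domains of G. hirsutum lay 47.6 and 17.5 points from those of G. barbadense. D10 in G. barbadense was 1.2 Mb wider than D10 in G. hirsutum, the second largest width difference of all 26 chromosomes, and A10 was 0.2 Mb wider. With covered length in the bins the A10 to D10 width ratio was 1.12 in G. barbadense. In that setting the G. hirsutum sites of both chromosomes were at 0 to 0.3 Mb, and the midpoints differed between species by 41.8 points on A10 and 57.8 on D10.

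The filling differed more than the width. Islands covered 19.4 times as many bases in the D10 domain of G. barbadense as in that of G. hirsutum, the largest factor of all 26 chromosomes. The other D chromosomes had a median of 3.76. On A10 the factor was 3.46, against a median of 2.73 on the other A chromosomes. With domains from islands of ratio 4 or more the D10 factor was 17.9, 2nd of 26, against a median of 5.28. The A10 factor was then 3.11, against 3.34. The ratio of ChIP to input reads was 2.40 times as high in G. barbadense on A10 and 2.20 times on D10, 21st and 24th of 26 (20th and 21st with domains from islands of ratio 4 or more). In G. hirsutum the domains of A05, A07, A09, D05 and D11 did not overlap their sites located from islands of ratio 4 or more. The G. hirsutum domains of D02 and D08 had ratios of 1.49 and 2.97. They lay 47.6 and 17.5 points from those of G. barbadense. With domains from islands of ratio 4 or more these differences were 47.3 and 17.6 points. Ranks, medians and ranges over all domains include all of these chromosomes. In a window of 1 Mb around the domain midpoint, the G. barbadense list held 259 islands on D10 and 250 on A10, and the G. hirsutum list 37 and 102. Antibody yield, depth and read placement cannot be told apart from species with 1 library each.

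ChIP and input reads both contributed to the ratio of the domains. On A10 of G. barbadense the islands of the domain held 108 ChIP reads per kb against 29.2 in the arms, 3.71 times as many and the largest factor of all 26 chromosomes. Their input reads per kb were 6.65 against 24.01, lower by a factor of 3.61. On D10 of G. barbadense the values were 78.9 against 29.3 ChIP reads and 6.19 against 21.2 input reads per kb, factors of 2.70 and 3.42. The G. hirsutum A10 domain had 59.8 against 32.3 ChIP reads and 6.45 against 19.0 input reads per kb, factors of 1.85 and 2.94. On its D10 the ChIP reads per kb were 41.7 against 32.4, a factor of 1.29, and the input reads per kb were 5.27 against 19.9, a factor of 3.77. So in G. hirsutum, and on D10 of G. barbadense, the factor of the lower input was larger than that of the higher ChIP. The arms are here the sequence more than 5 Mb outside the domain. The part of input depth and of read placement in the ratios was not tested.

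**Figure D3:**
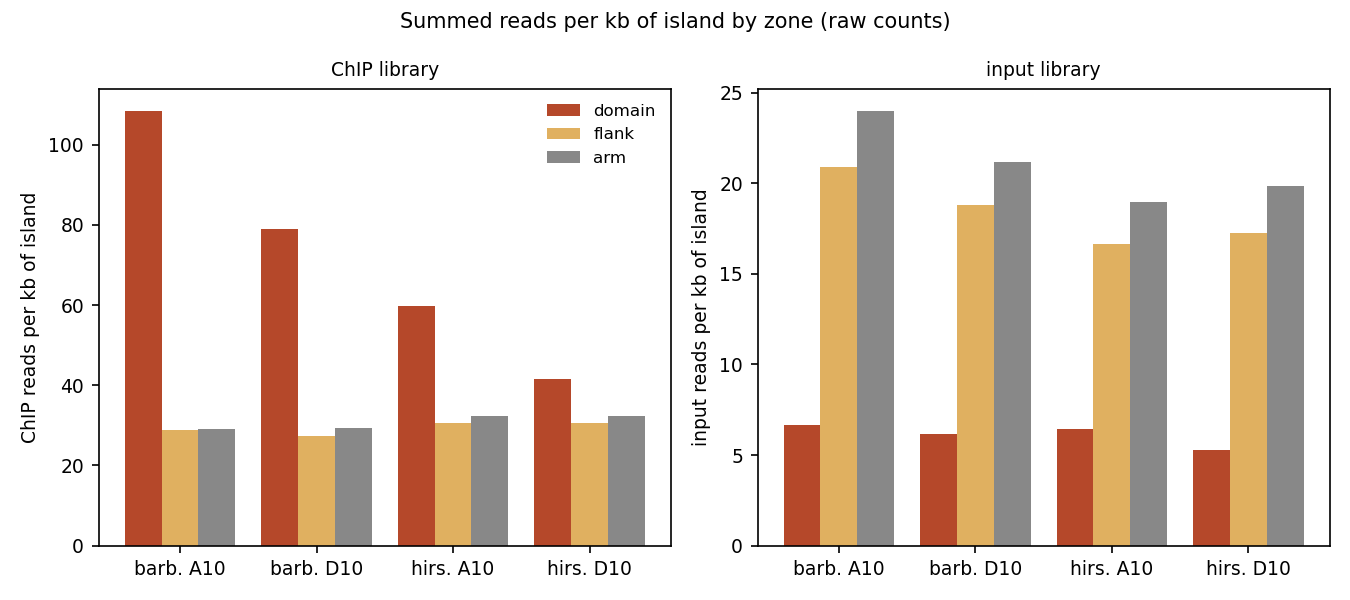
Summed raw ChIP reads (left) and input reads (right) per kb of island sequence in the domain, in the flanks within 5 Mb and in the arms, for A10 and D10 of G. barbadense (barb.) and G. hirsutum (hirs.). Domain bars are the highest of each group for ChIP (41.7 to 108 reads per kb) and the lowest for input (5.27 to 6.65 reads per kb).

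Around the domains the island density had opposite patterns in the lists. In G. barbadense the 1 Mb next to the domain on either side held 86.5 islands per Mb on A10 (74.1 to 100) and 81.5 on D10 (69.5 to 95.02). From 1 to 2 Mb it was 49.0 (39.8 to 59.7) and 36.5 (28.6 to 45.9), and from 2 to 5 Mb 31.2 (26.9 to 36.0) and 31.5 (27.2 to 36.3). For G. hirsutum the nearest 1 Mb was the sparse one, at 30.5 (23.3 to 39.2) on A10 and 13.5 (8.90 to 19.6) on D10. From 1 to 2 Mb A10 had 65.5 (54.8 to 77.7) and D10 25 (18.6 to 33.0), and from 10 to 20 Mb they had 55.8 (52.6 to 59.2) and 37.6 (34.9 to 40.3). Relative to the arms, the nearest 1 Mb in G. barbadense was 3.26 times as dense on A10 and 3.32 times on D10, and in G. hirsutum 0.652 and 0.453 times. Over the other chromosomes of each subgenome, this factor had a median of 3.12 (A) and 2.71 (D) in G. barbadense and of 0.959 and 0.823 in G. hirsutum. The longest stretch of D10 without any island in G. hirsutum was 447 kb, at 39839001 to 40286400. It began 0.989 Mb from the midpoint, not the edge, of the site located with islands of ratio 4 or more.

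**Figure D4:**
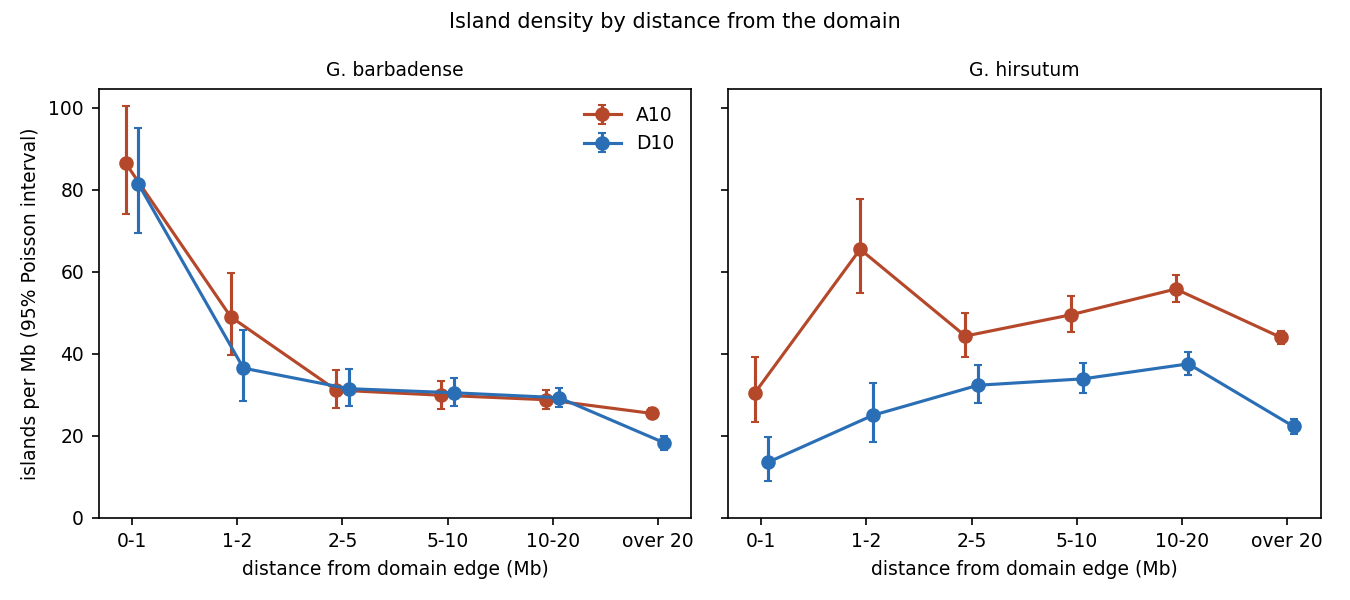
Islands per Mb (points with 95% Poisson intervals) in classes of distance from the edge of the domain in Mb, both sides summed, for A10 and D10 in each species. Density is highest in the first class in G. barbadense (86.5 and 81.5) and lowest there in G. hirsutum (30.5 and 13.5).

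Along the rest of the chromosome the islands were spread widely, with fewer towards both ends. In 10 equal parts, the parts of A10 in G. barbadense without the domain had between 19.96 (17.4 to 22.8, the first part) and 32.6 (29.3 to 36.1, the sixth) islands per Mb. On D10 they had between 13.5 (10.8 to 16.6, the last) and 38.6 (34.0 to 43.6, the seventh). Those of G. hirsutum without the domain went from 28.9 (25.8 to 32.1, the first) to 56.4 (52.1 to 60.9, the sixth) on A10. On D10 they went from 14.2 (11.5 to 17.4, the first) to 39.6 (35.0 to 44.7, the fourth). The part with the domain had 67.0 islands per Mb on A10 and 92.9 on D10 in G. barbadense. In G. hirsutum it had 51.2 and 26.2, and so was not the densest part of either chromosome.

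The part with the domain had the highest pooled ratio in both lists, which is no separate result since the domain was located by the same ratio. The fifth part of A10 had a ratio of 6.78 (6.68 to 6.89) in G. barbadense and 2.66 (2.61 to 2.71) in G. hirsutum, and the sixth part of D10 had 10.8 (10.6 to 11.03) and 2.53 (2.44 to 2.62). No other part passed 2.36 on A10 or 2.98 on D10 in G. barbadense, or 2.14 and 2.08 in G. hirsutum. In G. barbadense the last part had the highest ratio after the domain on both chromosomes, 2.36 (2.29 to 2.43) on A10 and 2.98 (2.81 to 3.16) on D10. There the share of islands of ratio 4 or more was 27.5% on A10 and 35.6% on D10. Elsewhere outside the domain it was between 8.23% and 18.8% on A10 and between 20% and 37.0% on D10, where the ninth part had the higher share.

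**Figure D5:**
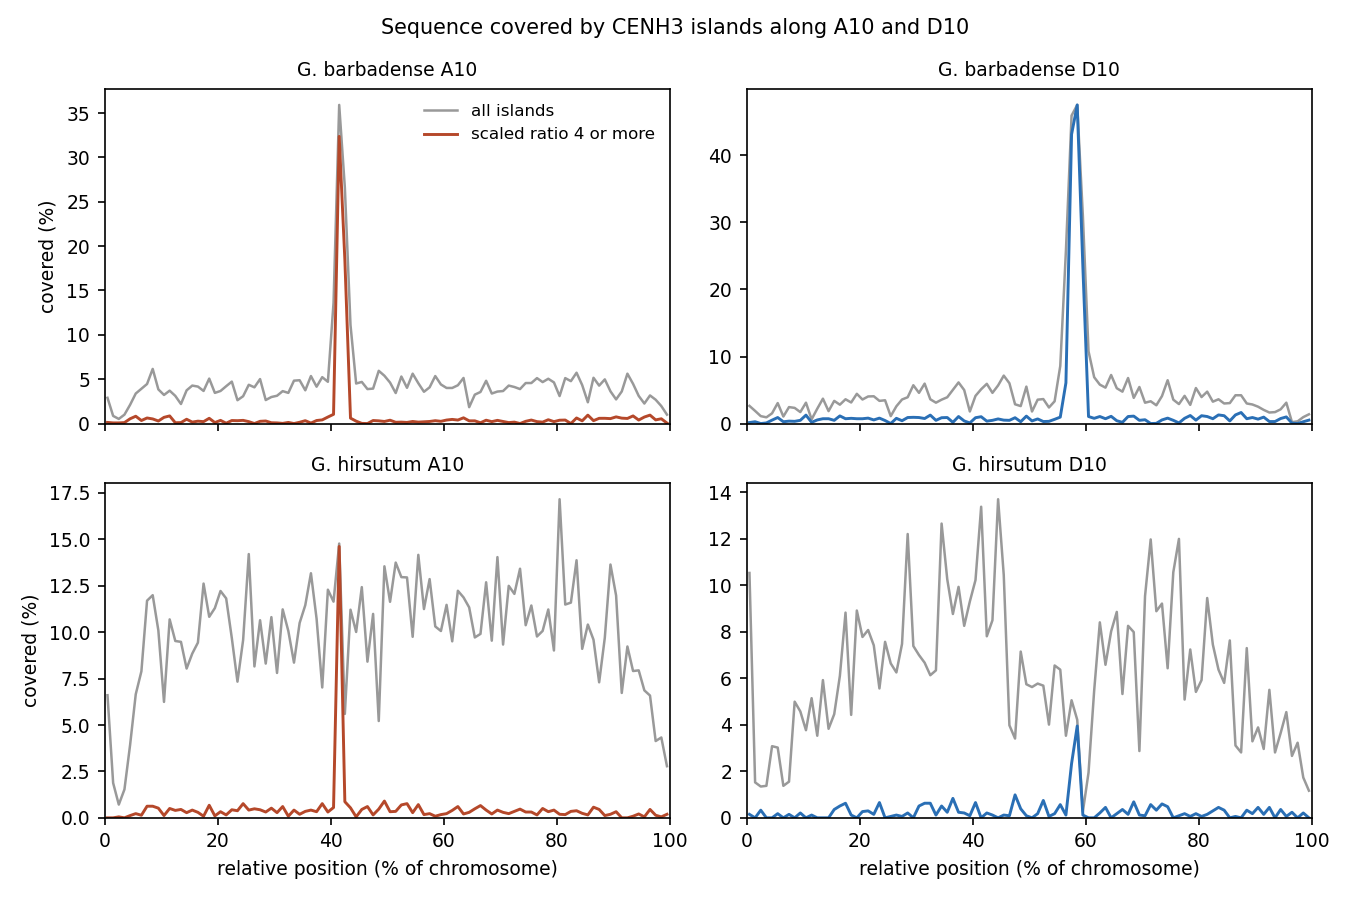
Percent of sequence covered by islands (vertical, a separate scale for each panel) in 100 equal parts along A10 and D10 (horizontal, percent of the end of the last island), for all islands (grey) and for islands of ratio 4 or more (coloured). The coloured line has 1 high peak per panel, near 42% on A10 and near 58% on D10, while the grey line has a matching peak in G. barbadense and none that stands out on A10 or D10 of G. hirsutum.

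Species could be set side by side by relative position in 50 equal parts. Over the 45 parts more than 5 points from both midpoints, the covered percentage had a Pearson r of 0.686 on A10 (Spearman rho 0.444) and of 0.666 on D10 (rho 0.663). With the domain parts kept, r was 0.274 and -0.119 over 50 parts. The parts share a chromosome and neighbour each other, and coverage is low at both ends in both lists, so these are descriptions. With islands of authors' q of 1e-05 or less r was 0.262 on A10 and 0.506 on D10. For islands of ratio 4 or more per Mb the 45 parts gave r of -0.235 on A10 and 0.117 on D10.

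A10 had more islands per Mb of arm than D10 in both lists, and strong arm islands per Mb went opposite ways. A10 had 26.6 islands per Mb of arm (25.6 to 27.6) and D10 24.5 (23.2 to 25.9) in G. barbadense, an A10 to D10 factor of 1.08, and 46.8 (45.5 to 48.1) and 29.8 (28.4 to 31.2) in G. hirsutum, a factor of 1.57. With islands of authors' q of 1e-05 or less the order in G. barbadense turned, at 11.3 on A10 and 14.4 on D10, while G. hirsutum had 32.8 and 19.8. Strong arm islands, those of ratio 4 or more with at least 40 ChIP reads, numbered 46 on A10 (1.72% of its arm islands) and 48 on D10 (3.56%) in G. barbadense, against 2.51% of the arm islands of all chromosomes. They numbered 159 on A10 (3.27%) and 54 on D10 (3.22%) in G. hirsutum, against 3.50%. Per Mb these were 0.458 (0.335 to 0.611) on A10 and 0.872 (0.643 to 1.16) on D10 in G. barbadense, and 1.53 (1.30 to 1.79) and 0.960 (0.721 to 1.25) in G. hirsutum. The A10 to D10 factors of 0.525 and 1.59 were 7th and 9th of 13 pairs, inside the range of the others. Without the read minimum the densities were 3.71 and 6.60 per Mb in G. barbadense and 3.47 and 2.35 in G. hirsutum, in the same order. In G. hirsutum the arms of A05, A07, A09 and D05 hold their sites located from islands of ratio 4 or more. The 3.50% and the range over the other pairs therefore include islands of those sites.

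Strong arm islands mostly stood alone. When those within 100 kb of each other were joined, the 46 of A10 in G. barbadense formed 42 groups and the 48 of D10 formed 44, none with more than 2 islands. The 159 of A10 in G. hirsutum formed 132 groups and the 54 of D10 formed 46, the largest with 3 islands, at 27876401 to 27977600 on A10 and at 15499601 to 15580400 on D10. The longer A10 arm and the shorter one had like densities, at 0.455 and 0.462 per Mb in G. barbadense and 1.53 in both arms in G. hirsutum.

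With no read minimum and the flanks included, islands outside the domain reached a ratio of 21.9 on A10 in G. barbadense and 13.2 on D10 in G. hirsutum. The arm islands named here are those of highest ratio with 40 or more ChIP reads, and arms by definition lie more than 5 Mb from the domain. In G. barbadense they were on A10 at 99213601 to 99214800 (41 ChIP and 7 input reads, ratio 9.61), 25947801 to 25949400 (40 and 7 reads, ratio 9.37) and 53383801 to 53385000 (50 and 9 reads, ratio 9.11). On D10 they were at 49700401 to 49702000 (46 and 2 reads, ratio 25.1), 58335401 to 58338400 (45 and 0 reads, ratio 24.6) and 31563201 to 31564800 (41 and 4 reads, ratio 16.8). In G. hirsutum those of A10 were at 75890401 to 75891200 (57 and 2 reads, ratio 22.8), 97926001 to 97926600 (41 and 2 reads, ratio 16.4) and 17738401 to 17739200 (48 and 7 reads, ratio 8.23). Those of D10 were at 10509801 to 10510400 (46 and 7 reads, ratio 7.89), 10300001 to 10301200 (57 and 9 reads, ratio 7.60) and 27190401 to 27191800 (49 and 8 reads, ratio 7.35). On A10 in G. hirsutum the first of these, at 22.8, compares with 28.0 for the highest domain island, and their intervals overlap.

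The left end of all 4 chromosomes carried a long island of dense input. It began at base 1 and ended at 17600 on A10 and 11000 on D10 in G. barbadense, and at 38200 and 28000 in G. hirsutum. On A10 of G. barbadense it held 3557 ChIP and 5006 input reads, 284 input reads per kb, with a ratio of 1.17 (1.12 to 1.22). On D10 it held 3204 and 4580 reads, 416 input reads per kb, with a ratio of 1.15 (1.10 to 1.201), and was the island of densest input of that chromosome. In G. hirsutum it held 8405 and 7780 reads on A10 (204 input reads per kb, ratio 1.30) and 5490 and 5487 on D10 (196 input reads per kb, ratio 1.201). The median island of these chromosomes held 15.8 to 20.7 input reads per kb. Islands of this kind began at base 1 on 25 of 26 chromosomes in G. barbadense and on 26 of 26 in G. hirsutum, so they were no feature of the pair. They set the ratio of the first 5% of the chromosome, which was 1.43 on A10 and 1.34 on D10 in G. barbadense, and 2.53 (2.35 to 2.72) and 2.37 (2.17 to 2.59) without them. The same G. hirsutum ratios were 1.44 and 1.42, and 1.86 (1.77 to 1.96) and 2.05 (1.94 to 2.17) without them. At the right end the last 5% had 2.61 (2.48 to 2.76) and 3.09 (2.82 to 3.39) in G. barbadense, and 2.16 (2.08 to 2.23) and 1.91 (1.80 to 2.03) in G. hirsutum.

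Dense input was rare. Counting the first islands, those of 100 or more input reads per kb numbered 5 on A10 and 2 on D10 in G. barbadense, and 7 and 4 in G. hirsutum, with none in a domain or its flanks. They held 6.34% and 8.04% of the input reads in islands in G. barbadense and 5.72% and 9.54% in G. hirsutum, and had pooled ratios of 1.15 to 1.35. The densest on A10 was at 97911001 to 97911800 in G. barbadense (528 ChIP and 467 input reads, 584 input reads per kb, ratio 1.85) and at 6858201 to 6860000 in G. hirsutum (2808 and 2448 reads, 1360 input reads per kb, ratio 1.38). On D10 of G. hirsutum it was at 58995601 to 58996000 (246 and 220 reads, 550 input reads per kb, ratio 1.34).

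The last islands were short. In G. barbadense they lay at 111703801 to 111704400 on A10 (29 ChIP and 23 input reads, ratio 2.07) and at 66828601 to 66829200 on D10 (41 and 12 reads, ratio 5.60). In G. hirsutum they lay at 115063001 to 115063400 on A10 (36 and 8 reads, ratio 5.40) and at 66855401 to 66856000 on D10 (29 and 18 reads, ratio 1.93). The longest stretches without an island were 728 kb on A10 (2784201 to 3512000) and 593 kb on D10 (64700801 to 65293400) in G. barbadense, each within 3% of a chromosome end. On A10 of G. hirsutum it was 546 kb, at 26779001 to 27325200.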

How the data were processed

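Raw counts of ChIP and input reads per island were used as the authors deposited them, with no normalization. Per the submitters' processing notes, Trimmomatic, Bowtie2 and SICER were used; no version is recorded there, and the genome build is not given in the sources used here. Per the names of the deposited lists, windows were 200 bp, gaps up to 400 bp and the false discovery rate 0.01. The authors deposited a p-value, a q-value and a linear fold (ratio) per island. Islands with 0 input reads have a deposited fold as if at 0.25 reads, so the scaled ratio with input of at least 3 reads was used. Library totals were not used here, and sequence outside islands has no value.

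Bins of 100 kb held the overlap of islands times log2 of the scaled ratio (at least 1), smoothed over 5 bins. A domain was the run around the maximum at or above the median plus 25% of the rise, with gaps of up to 2 bins bridged. It was distinct at 2 times any bin over 2 Mb outside it. Islands belong to a zone by their midpoint. Pooled ratios sum reads and carry exact Clopper-Pearson intervals, and densities carry exact Poisson intervals. For single islands and 50 kb bins these intervals also count the input as at least 3 reads, so below that they are not exact for the reads given. Coordinates count from 1. The islands named are, per chromosome and list, the 3 of highest ratio in the domain, the 3 of highest ratio in the arms with 40 or more ChIP reads, the densest in input, the longest, the first and the last. The domain rule was checked on simulated chromosomes, whose planted domains held more islands at higher ratios than the G. hirsutum domains. The check therefore does not cover domains as sparse as those. Python 3.11.15, pandas 2.3.3 and scipy 1.17.1 were used. The chromosomes, rules and measures were chosen with earlier results of these data known. No sequence is printed, since no genome of the lists' builds was used here.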

Additional observations from a re-analysis of the deposited data

Results flagged for a closer look

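Several measures of A10 against D10 went opposite ways in the species. The difference was not tested, with 1 library per species. Domain width was 0.722 times as large on A10 in G. barbadense and 1.83 times in G. hirsutum. Covered length in the domain was 0.674 times as large on A10 in G. barbadense and 3.79 times in G. hirsutum. Islands per Mb of the whole chromosome were 0.939 times as many on A10 in G. barbadense and 1.60 times in G. hirsutum, against medians of 0.992 and 1.57 over the other pairs, and in the arms alone both species were above 1 (1.08 and 1.57). Strong arm islands per Mb were 0.525 times as many on A10 in G. barbadense and 1.59 times in G. hirsutum.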

How the results depend on the processing

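Of 96 recomputed values, 59 stayed within the interval of the reported value, or within 1 bin for widths and positions and 0.1 for r, and 37 did not. With covered length in the bins the domain ratios were 12.4 (A10) and 14.4 (D10) in G. barbadense and 1.30 and 1.32 in G. hirsutum, the A10 to D10 width ratios were 1.12 and 1, and the positions differed by 41.8 and 57.8 points. In this setting the G. hirsutum site was the chromosome's first 0.3 Mb. With the threshold at 50% of the rise the domain ratios were 32.8 (A10) and 28.2 (D10) in G. barbadense and 12 on A10 in G. hirsutum. Without smoothing they were 29.6 and 21.6 in G. barbadense. On D10 the ratio was 23.7 in G. barbadense with the domain located from islands of ratio 4 or more. In G. hirsutum it was 7.82 with 50 kb bins and 7.80 with islands of q 1e-05 or less. With that q the arm densities were 11.3 (A10) and 14.4 (D10) in G. barbadense and 32.8 and 19.8 in G. hirsutum, and r was 0.262 (A10) and 0.506 (D10). With arm islands of 40 or more ChIP reads the densities were 10.3 and 7.74, and 37.3 and 23.6. So the order of A10 and D10 arm densities in G. barbadense turned with the stricter q. Leaving out 10 Mb gave 23.2 on D10 in G. barbadense. With 20 parts r was 0.883 and 0.814. Strong arm islands per Mb without the read minimum were 3.71 (A10) and 6.60 (D10) in G. barbadense and 3.47 and 2.35 in G. hirsutum. At a ratio of 8 or more they were 0.0498, 0.200, 0.0481 and 0 in that order. The cause was not tested in any of these. No paired analysis was possible because each species had 1 ChIP and 1 input library. The authors' fold in the bins and any overlap left every value they touched within these limits. An input floor of 1 read was applied to strong arm islands alone. With 40 or more ChIP reads and input under 3 reads, an island passes a ratio of 4 at either floor. That setting therefore could not change a value, though its values are counted among the 59.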
